A study of Mus musculus with 90 samples.

Results

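Wild-type stem cells of mouse bone marrow that had become megakaryocyte-like in culture (WT MK) were set beside cells that had not (WT NMK). The 6 WT MK and 9 WT NMK libraries are all those of their groups in the authors' table without outliers, which holds 33 libraries; their fuller table holds 46, and the labels list 90 samples. Each library is 1 cell, as the title of the series states. Both groups carry the genotype MxCre1-/-,RUNX1f/f, so they hold the floxed Runx1 alleles but no Cre recombinase, and both came from mice given 4 injections of poly(I:C), an interferon-inducing RNA mimic. CD41pos HSCs, which are hematopoietic stem cells sorted for surface CD41, were taken 4 weeks after the injections and cultured for 2 days. The series asked what such cells can become with and without RUNX1, and the comparison here describes what set the 2 kinds of cell apart when Runx1 was intact. How a cell was judged to be MK-like is not given in the sources used here, and neither is the age of the mice. The labels tie no cell to an animal or culture, which leaves 1 sample a group, so no test was made and every SD below is the spread between single cells.

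Megakaryocytes are the large, polyploid cells of the marrow that shed platelets. They fill alpha granules with proteins such as platelet factor 4, carry the receptors by which platelets stick to injured vessels and respond to thrombin, and extend long tubulin-based processes from which platelets bud. GATA1, with its cofactor FOG1, and ETS-family factors such as FLI1 drive these genes, and RUNX1 acts with them. Stem cells instead carry Sca-1, encoded by Ly6a in mice, and KIT, and express HOXA-cluster factors that keep them immature.

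Values are TPM, an abundance scaled for gene length and to the same total in every library, so the number of reads behind a value is unknown. WT MK libraries listed more genes above 0, from 14089 to 15252, than WT NMK libraries, from 5475 to 11715. Their housekeeping score, the mean log2(TPM + 1) of 14 common genes, was 9.0 to 9.45 against 8.09 to 9.08. The authors had left out 5 further WT MK libraries and 1 WT NMK library, with scores of 3.05 to 4.73 and 2.38.

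The WT MK libraries resembled each other closely. Over the compared genes, Pearson's r of log2(TPM + 1) was 0.954 to 0.969 among the 10 pairs formed by the 5 WT MK libraries whose titles have no prefix (1, 2, 4, 1A and 1B). It was 0.885 to 0.904 between these and the WT MK library with the prefix B1 (B1-1), 0.581 to 0.773 among the 36 pairs of WT NMK libraries, and 0.649 to 0.816 between the groups. These values describe pairs of libraries across genes, and no test was attached. Genes at 50 TPM or more in 1 library and listed at 0 in the other numbered 0 to 7 per pair among the 5 unprefixed WT MK libraries and 195 to 821 per pair among WT NMK libraries. Over the 1797 genes averaging at least 50 TPM in both groups, the median SD on the log2 scale was 0.33 in WT MK, 0.21 without B1-1, and 0.88 in WT NMK. Whether the 5 libraries share a source was not tested, and if they do, the SD of WT MK understates the spread between cells. Counts of genes are also given with these 5 averaged into 1 library. Fewer WT MK libraries must then stand apart, which makes a call easier. Those counts therefore cannot show whether the calls would hold if the 5 share a source.

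**Figure D1:**
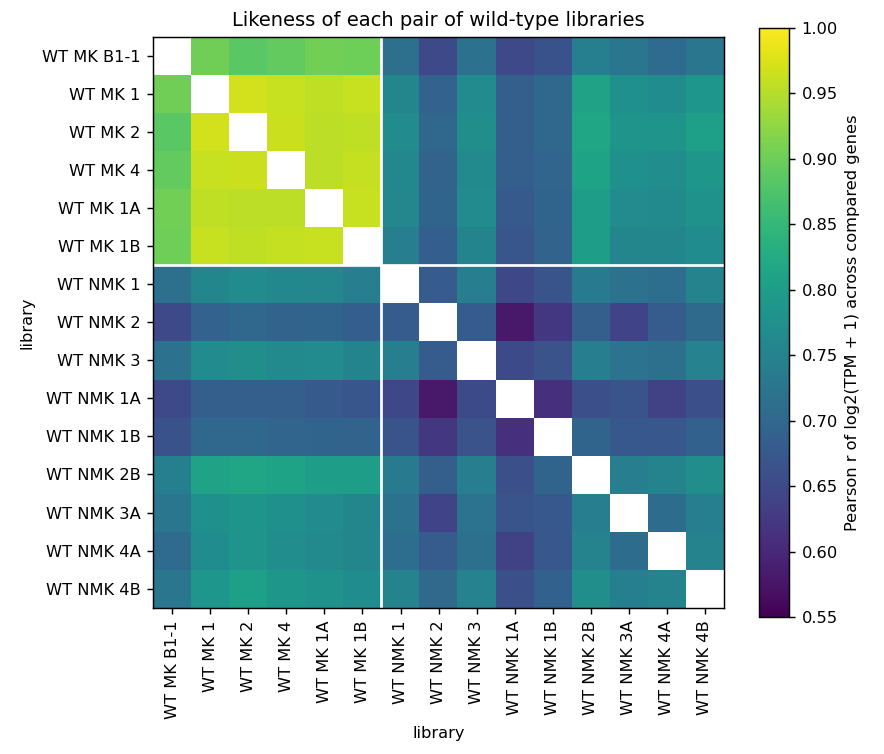
Pearson's r of log2(TPM + 1) across the compared genes for each pair of the 15 wild-type libraries, by colour, with WT MK and WT NMK parted by white lines. The 6 WT MK libraries form a bright block (0.885 to 0.969), while pairs of WT NMK libraries (0.581 to 0.773) are no more alike than WT MK with WT NMK libraries (0.649 to 0.816).

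Pf4, Tuba8 and Timp3, all known in platelets, were among the genes most clearly higher in WT MK, and Rgs2, Gstm1 and Hoxa9 among those lower. For each of the 11562 genes averaging at least 1 TPM in either group, the difference is the mean log2(TPM + 1) of WT MK minus that of WT NMK. A gene was called where this difference was 2 or more in size and no library of one group overlapped the other group. By this rule 266 genes (2.3%) were called higher and 28 (0.242%) lower in WT MK. With the 5 unprefixed WT MK libraries averaged into 1, where fewer libraries must stand apart, 554 were called higher and 30 lower. Of these, 258 and 24 were among those called above. Whatever the size of the difference, all WT MK libraries lay above all WT NMK libraries for 4.58% of genes and below them for 0.528%. The difference was above 0 for 74.6% of genes, and the median gene stood at 0.70, so differences near that value are shared by most genes. The groups also differ in the number of genes detected per library, whose part in the counts was not tested. Without the 3 WT NMK libraries with the fewest genes, 382 were called higher and 65 lower, again with fewer libraries that must stand apart. With the 6 left-out libraries put back, 4 were called in each direction, all among those called above, and with 10 TPM added before the log, in place of 1, 48 were called higher and 19 lower. A lower call needs every one of the 9 WT NMK libraries to stand above all WT MK libraries, so a single WT NMK library near 0 prevents it.

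**Figure D2:**
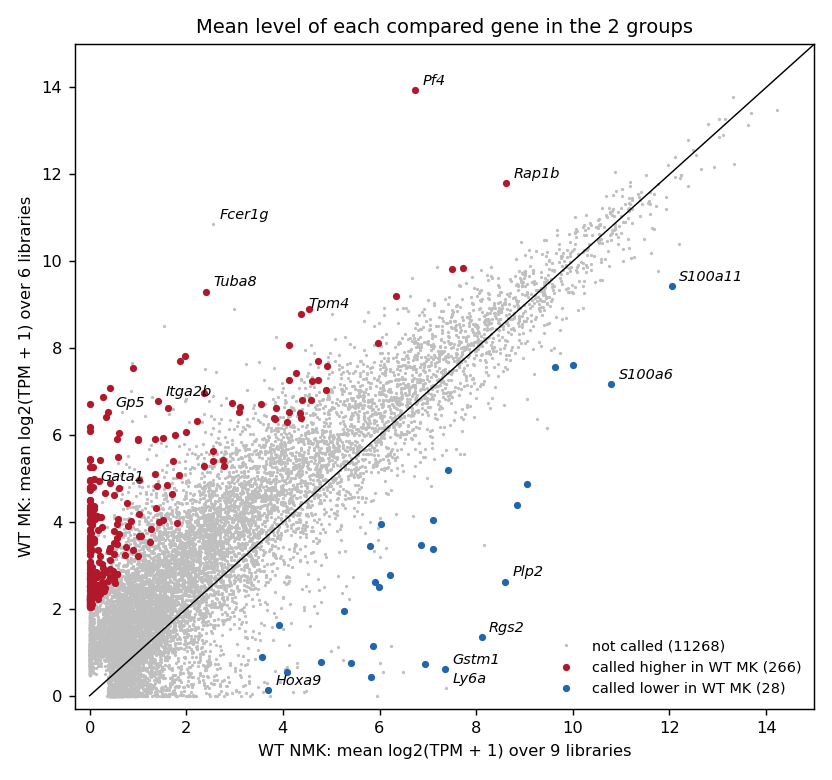
Mean log2(TPM + 1) of each compared gene in WT NMK (horizontal axis, 9 libraries) and WT MK (vertical axis, 6 libraries), with the diagonal marking equal means. The 266 genes called higher lie above the diagonal, many at the left edge where WT NMK was near 0, and the 28 called lower lie below it; Fcer1g and Ly6a lie far from the diagonal but were not called, because libraries of the 2 groups overlap.

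The receptors that anchor platelets to vessel walls were higher in WT MK throughout the list. All 17 of 17 compared members had a positive difference, 6 of them called, with a median of 2.25. Of all compared genes, 74.6% had a positive difference and 2.3% were called higher. Members of this and the other lists were chosen with earlier results of these data known. Counts and scores of the lists are therefore descriptions and no independent support. The list score, the mean log2(TPM + 1) over members, was 5.43 ± 0.52 (SD, n = 6) in WT MK and 2.31 ± 0.43 (SD, n = 9) in WT NMK, and the lowest WT MK library lay above the highest WT NMK library. The receptor for von Willebrand factor is built from GPIb alpha, GPIb beta, GPIX and GPV. Gp5 ranged from 36.9 to 413.8 TPM (median 79.4) in WT MK, and in WT NMK it was 8.4 TPM in library 4A and 0.1 TPM or lower in the others, a difference of 6.15 against a pooled SD of 1.12. The highest value of Gp5 was that of B1-1, and the groups did not overlap. Gp1bb was 61.6 to 112.7 TPM (median 86.5) in WT MK and listed at 0 in 8 of the 9 WT NMK libraries, with 7.1 TPM in 2B, a difference of 6.09 (SD 0.81). Gp1ba was lower in level, at 2.2 to 30.7 TPM (median 7.05) against 0 to 2.7 TPM (median 0), and because these ranges overlap slightly its difference of 2.79 (SD 0.87) was not called. Gp9 overlapped more, at 19.9 to 30.7 TPM against 0 to 27.4 TPM, so that 6 of the 9 WT NMK cells had 1 TPM or more of it.

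The fibrinogen receptor pairs integrin alpha IIb, which is the CD41 used for the sort, with integrin beta 3. Itga2b was 46.8 to 454.7 TPM (median 95.4) in WT MK and 0 to 22.3 TPM (median 0.1) in WT NMK, a difference of 5.36 (SD 1.69). In WT NMK, it reached 11.3 to 22.3 TPM in libraries 1B, 2B and 3A and 0.5 TPM or lower in the other 6, although all cells descended from a CD41-positive sort. Itgb3 was 30.4 to 86.5 TPM against 0 to 27.6 TPM, a difference of 4.41 (SD 1.53). Treml1, of an alpha-granule receptor exposed on activated platelets, was 17.1 to 67.4 TPM in WT MK and 0.6 TPM or lower in every WT NMK library. Clec1b, the podoplanin receptor CLEC-2, was 8 to 30.7 TPM against 0 to 0.9 TPM, a difference of 3.95 (SD 0.49). Fcer1g, the signalling chain of the collagen receptor GPVI and of Fc receptors, had the greatest difference of the list at 8.31 (SD 3.27). It was 2011.6 to 4745.7 TPM in 5 WT MK libraries but 107.8 TPM in WT MK 2, while WT NMK 1A, 4B and 2B held 329.2, 212.8 and 112.4 TPM and the other 6 were listed at 0, so it was not called.

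The 250 bases before the start of 5 of these and the following genes are shown because these genes were higher together and because GATA and ETS factors are known to act at platelet genes; they were chosen after their matches were seen. The same window of Ppbp and of Treml1 held no GATA or ETS match. Capitals mark every match on either strand. The GATA letters searched were AGATAA, its form with T as the first base, TGATAA, its form with G as the last base, AGATAG, and the form with both of these, TGATAG. The ETS letters were CGGAAG and the form with A as the first base, AGGAAG. The sequences are those of RefSeq for GRCm38.p6, each 5′ to 3′ on the strand of its gene. Gp5 (chr16:30310782-30311031, minus strand) holds 3 GATA matches and 1 ETS match. Gp1ba (chr11:70638872-70639121, plus strand) also holds 3 and 1, F2rl2 (chr13:95696670-95696919, plus strand) 1 of each, beginning 95 and 101 bases before the start, Itga2b (chr11:102469884-102470133, minus strand) 2 ETS matches, and Pf4 (chr5:90772185-90772434, plus strand) 1 ETS match.
Gp5: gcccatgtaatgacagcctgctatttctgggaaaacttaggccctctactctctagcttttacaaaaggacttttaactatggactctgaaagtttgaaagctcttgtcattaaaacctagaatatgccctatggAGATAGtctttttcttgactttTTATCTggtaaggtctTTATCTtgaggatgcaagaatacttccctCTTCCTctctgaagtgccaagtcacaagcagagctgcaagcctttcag
Gp1ba: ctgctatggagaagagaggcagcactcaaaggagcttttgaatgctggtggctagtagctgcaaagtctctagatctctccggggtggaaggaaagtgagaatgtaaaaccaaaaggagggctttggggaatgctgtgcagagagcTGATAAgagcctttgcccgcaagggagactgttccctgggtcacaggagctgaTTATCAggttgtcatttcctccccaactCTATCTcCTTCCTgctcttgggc
F2rl2: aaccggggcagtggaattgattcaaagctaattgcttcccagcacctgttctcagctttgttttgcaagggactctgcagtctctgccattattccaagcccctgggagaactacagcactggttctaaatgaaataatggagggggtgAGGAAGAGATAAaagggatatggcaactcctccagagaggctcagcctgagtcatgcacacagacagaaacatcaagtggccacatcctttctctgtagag
Itga2b: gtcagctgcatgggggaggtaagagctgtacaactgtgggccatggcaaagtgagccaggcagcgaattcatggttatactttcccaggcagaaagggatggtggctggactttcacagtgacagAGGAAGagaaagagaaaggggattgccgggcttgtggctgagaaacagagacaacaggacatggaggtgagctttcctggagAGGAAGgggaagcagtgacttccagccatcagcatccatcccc
Pf4: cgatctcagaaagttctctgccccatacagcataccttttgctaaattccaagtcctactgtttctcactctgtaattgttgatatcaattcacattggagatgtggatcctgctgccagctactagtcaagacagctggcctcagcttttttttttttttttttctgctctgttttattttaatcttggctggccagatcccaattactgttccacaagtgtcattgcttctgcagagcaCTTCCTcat

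In Gp5 the GATA matches began 115, 93 and 77 bases before the start and the ETS match 48 bases before it, and in Gp1ba they began at 104, 51 and 23 bases and at 16 bases. Promoters could be matched for 8252 of the 11562 compared genes, and of these 17.6% held a GATA match, 48.2% an ETS match and 8.36% both. Of the 13 called genes on the 3 lists of platelet cargo, adhesion and agonist response, 10 were matched, and 4 (40%) held GATA, 8 (80%) ETS and 3 (30%) both. Over all called genes the shares were close to those of all compared genes: 20.8% of 192 matched genes called higher held GATA, 46.9% ETS and 10.4% both. Genes called lower held GATA in 8 of 25 (32%) and ETS in 12 of 25 (48%). The RUNX letters TGTGGT, or those with C as the third base, TGCGGT, were found in 18.8% of those called higher and in 17.9% of all compared genes. Over all 27025 promoters of the table, 27.1% held GATA, 39% ETS and 18.7% RUNX letters. A match describes letters in this window only, and a longer match and other windows were not searched.

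Alpha-granule cargo was led by Pf4, platelet factor 4, a chemokine that binds heparin. Pf4 had the highest mean of all transcripts in WT MK cells, and the highest level in 5 of the 6 (Ftl1 was higher in 1A), and made up 1.58% of their TPM, at 12512.8 to 19618.6 TPM (median 15938.6). In WT NMK it spread from 3 TPM in library 2B to 1453.1 TPM in 1B (median 174.8), with 7.3 TPM in 1, 20.8 TPM in 2 and 163.5 to 499.5 TPM in the other 5. No WT NMK library was without Pf4, and none reached the lowest WT MK library, giving a difference of 7.20 (SD 2.28). Timp3, a secreted inhibitor of matrix metalloproteinases, was 68.7 to 200.4 TPM against 0 to 5.8 TPM, a difference of 6.65 (SD 0.81). Vwf, von Willebrand factor itself, was low in both, at 3.7 to 8.3 TPM and 0 to 2.1 TPM, and Thbs1, thrombospondin 1, was 0.4 to 9.3 TPM in WT MK and listed at 0 in every WT NMK library.

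Across the cargo list, 13 of 16 compared members were higher, 4 were called, and the median difference was 2.25. Over all compared genes, 74.6% were higher, 2.3% were called higher, and the median was 0.70. Scores were 5.04 ± 0.43 (SD, n = 6) and 2.43 ± 0.52 (SD, n = 9) with no overlap. Ppbp, the platelet chemokine next in abundance, was 152.1 to 882.2 TPM in WT MK and 3.3 TPM or lower in 8 WT NMK libraries, but 313.8 TPM in WT NMK 4B, so it was not called at a difference of 6.96 (SD 2.17). Clu, the chaperone clusterin, overlapped as well, at 45.2 to 113.8 TPM against 0 to 61.2 TPM. Srgn, the proteoglycan that packs granules, and Angpt1, angiopoietin 1, differed little, by -0.25 (SD 0.69) and -0.31 (SD 0.78). Gas6, a ligand of the TAM receptors, had the opposite sign, with 0 to 6.2 TPM in WT MK and 0 to 124.7 TPM (median 17.8) in WT NMK. Cxcl5, another chemokine gene, was also called higher; it lies 10810 bases from Pf4 on chromosome 5, with Ppbp between them.

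Receptors for thrombin, ADP and thromboxane, and the signalling proteins behind them, were higher in 26 of 27 compared members. Of these 3 were called, and the median was 1.81. Among all compared genes 74.6% were higher and 2.3% called higher. Scores were 5.30 ± 0.29 (SD, n = 6) against 3.19 ± 0.32 (SD, n = 9) and did not overlap. F2rl2 encodes PAR3, a thrombin receptor of mouse platelets. It was 119 to 297.5 TPM (median 226.7) in WT MK, and in WT NMK it was 58.4, 37.8 and 30.4 TPM in libraries 2, 4B and 3 and 0.7 TPM or lower in the other 6, a difference of 5.83 (SD 2.10). Rap1b, the small GTPase that switches on the fibrinogen receptor, was high in every cell, at 2351.2 to 4374.4 TPM (median 3816.45) in WT MK and 162.5 to 496.6 TPM (median 424.5) in WT NMK. Its difference of 3.17 exceeded its SD of 0.45 more clearly than that of F2rl2, since no cell lacked it. Pde5a, the cyclic GMP phosphodiesterase of platelets, was 5.8 to 12.1 TPM against 0 to 1.3 TPM.

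Other members of the list overlapped. Rgs10, a brake on G protein signalling in platelets, was 70.5 to 128.7 TPM in WT MK and listed at 0 in 6 WT NMK libraries, with 73.8 TPM in 3A. Plek, pleckstrin, was 257.2 to 606 TPM in WT MK and 0 to 316.4 TPM in WT NMK. F2r, which encodes PAR1, was 263 to 1147.7 TPM in WT MK and 2.4 to 538.8 TPM in WT NMK, and all 15 cells had 1 TPM or more. Gng11, a G protein gamma subunit, was as high in WT NMK as in WT MK (median 606.4 and 494 TPM), a difference of -0.09 (SD 0.52).

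**Figure D3:**
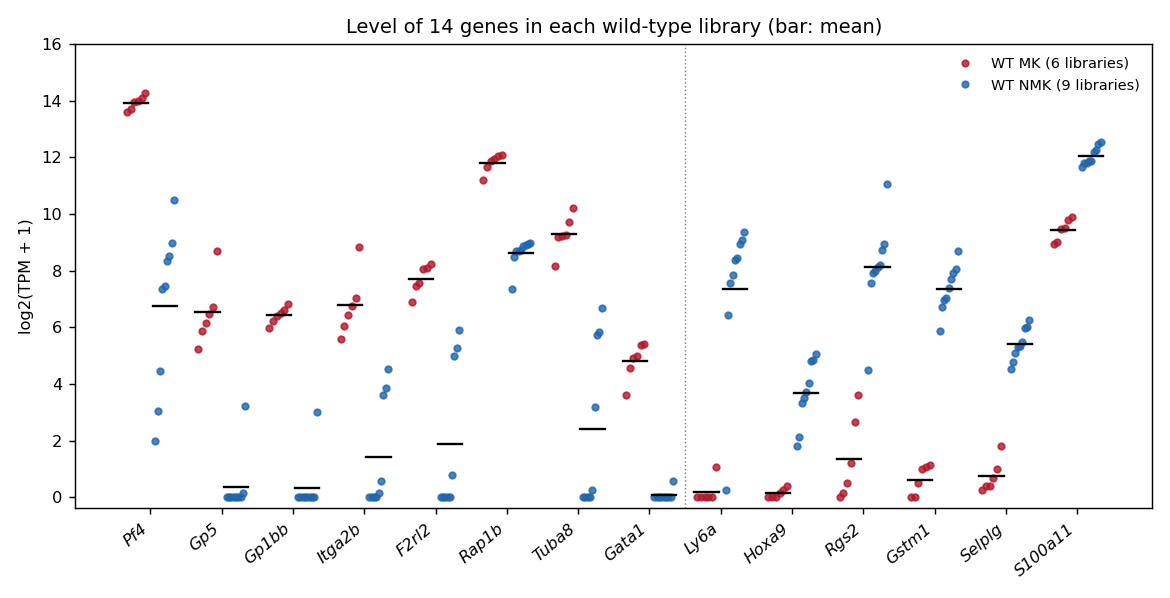
Level of 14 genes as log2(TPM + 1) in each of the 6 WT MK (red) and 9 WT NMK (blue) libraries, with black bars at the group means. For Pf4, Gp5, Gp1bb, Itga2b, F2rl2, Rap1b, Tuba8 and Gata1 every red point lies above every blue one, and right of the dotted line the order is the other way round, except that Ly6a in WT NMK 3A (0.2 TPM) lies among the WT MK cells.

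Transcription factors of the lineage differed less than its cargo, adhesion and agonist response genes, and about as much as its granule biogenesis genes (list differences of 1.19 and 1.21). The list score was 3.66 ± 0.30 (SD, n = 6) against 2.46 ± 0.38 (SD, n = 9). The lowest WT MK library (3.10, WT MK 2) lay just above the highest WT NMK library (3.09). Summed over the list, TPM overlapped, at 323 to 554.5 in WT MK and 258 to 775.8 in WT NMK. The median difference of the 21 members was 0.94, near the 0.70 of all genes. Gata1 stood apart: it was 11.2 to 41 TPM (median 30.15) in WT MK, 0.5 TPM in WT NMK 1B, and listed at 0 in the other 8 WT NMK libraries, a difference of 4.75 (SD 0.44). Zfpm1, which encodes its cofactor FOG1, was the other called member, at 3.4 to 23.8 TPM against 0 to 2.8 TPM. Runx1 was 7.6 to 22.2 TPM (median 11) in WT MK and 0 to 15.7 TPM (median 5.3) in WT NMK, an overlapping difference of 1.79 (SD 1.36). Several factors shared with stem cells and progenitors differed little: Lmo2 differed by -0.01 (SD 0.61), Cbfb by -0.01 (SD 1.02), Nfe2 by 0.47 (SD 1.06) and Meis1 by 0.70 (SD 1.10). Myb, a factor of proliferating progenitors, went the other way, at 7.1 to 26 TPM in WT MK and 49.8 to 333.1 TPM in 8 WT NMK libraries, but 12.1 TPM in WT NMK 1.

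Genes for the proplatelet cytoskeleton gave scores of 5.88 ± 0.30 (SD, n = 6) and 4.31 ± 0.35 (SD, n = 9) with no overlap. Summed over the list, TPM did overlap, at 19041 to 27243.7 in WT MK and 13621.3 to 22227.2 in WT NMK. Of 25 compared members, 23 were higher and 2 were called, beside 74.6% and 2.3% of all compared genes. Tuba8, an alpha tubulin of platelets, was 288.2 to 1184.5 TPM (median 603.55) in WT MK. In WT NMK it was 101.5, 55.4 and 51.9 TPM in 1B, 2B and 3A, 8.1 TPM in 4B and 0.2 TPM or lower in the other 5, a difference of 6.89 (SD 2.35). Those 3 WT NMK libraries are the same 3 with the most Itga2b. Tpm4, a tropomyosin that platelets need for normal number, was 313 to 587.7 TPM against 0 to 239.3 TPM. The abundant actin regulators Pfn1 and Tmsb4x differed by 0.24 (SD 0.41) and 0.36 (SD 0.34), and Actn1 had a negative difference of -1.09 (SD 1.5).

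Granule biogenesis genes scored 4.09 ± 0.30 (SD, n = 6) against 2.88 ± 0.40 (SD, n = 9), again without overlap. Of 22 compared members, 19 were higher, beside 74.6% of all compared genes, and the median was 1.17. Summed over the list, TPM overlapped, at 4082.6 to 4982.8 in WT MK and 3910.2 to 7531.6 in WT NMK. With the 6 left-out libraries put back the list difference was -0.041. The called members were Slc35d3, needed for platelet dense granules, and Rab27b, which moves and docks them. Slc35d3 was 30.8 to 81 TPM in WT MK, 26.6 TPM in WT NMK 3 and 0.2 TPM or lower in the others, and Rab27b was 25.2 to 63 TPM against 0 to 15.2 TPM. Vamp8, the main vesicle SNARE of platelet release, and Cd63, a granule membrane protein, were as abundant in WT NMK, with differences of -0.35 and -0.38. Among 13 eicosanoid genes none was called and the scores overlapped. Alox5, the leukotriene-forming 5-lipoxygenase, was 68.1 to 379 TPM in WT MK and listed at 0 in 7 WT NMK libraries, but 129.3 TPM in WT NMK 2 and 23.2 TPM in 3.

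**Figure D4:**
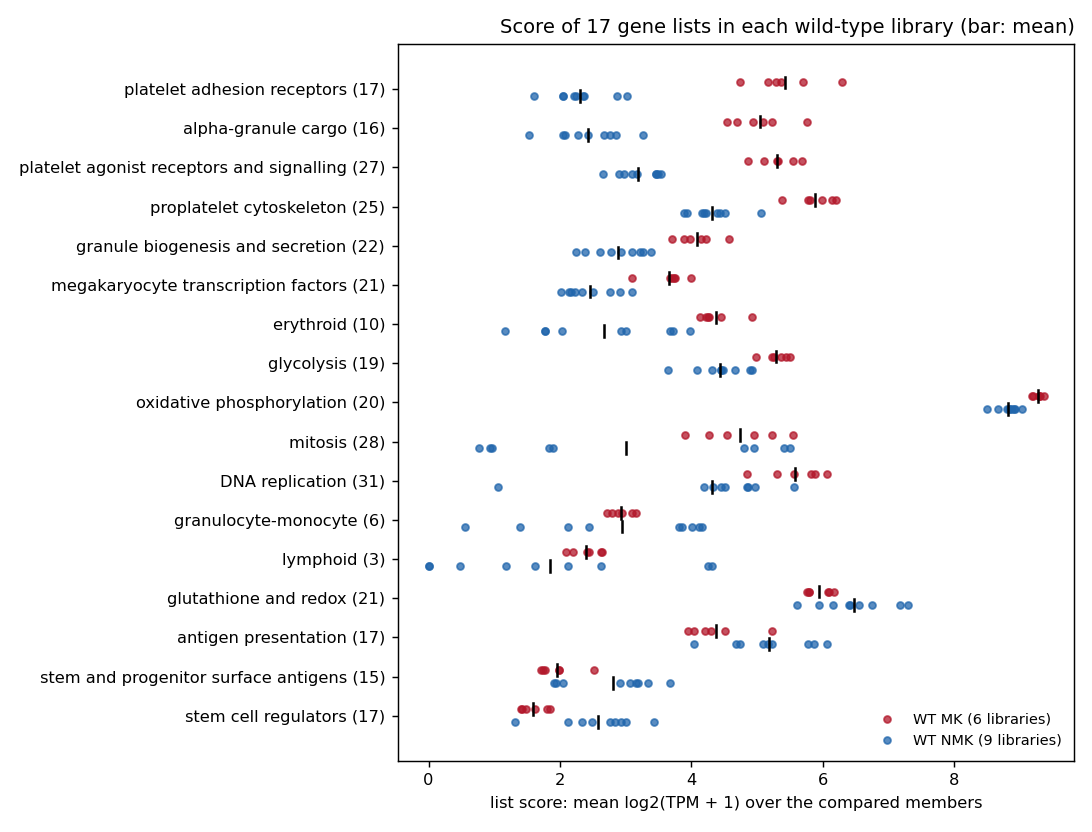
Score of 17 gene lists, with the number of compared members in brackets, in each WT MK (red) and WT NMK (blue) library, as mean log2(TPM + 1) over the members, with black bars at the group means. Red and blue do not overlap for the 6 lists of platelet and megakaryocyte genes at the top, nor for the erythroid, glycolysis and oxidative phosphorylation lists, and they overlap for the rest.

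Some genes were on in every WT MK cell and listed at 0 in every WT NMK cell. Of the 11562 compared genes, 86 had 1 TPM or more in all 6 and 0 in all 9. No gene showed the reverse. WT MK libraries also listed more genes, and 7634 genes were at 1 TPM or more in all 6 WT MK cells against 2009 in all 9 WT NMK cells. The part of unequal detection in the 86, and in the lack of the reverse, was not tested. Of the 86, 45 have names other than those of predicted, small RNA or pseudogenes. The choice was by name alone, and RefSeq lists Magef1 as a transcribed pseudogene and Rny3 as a Y RNA. Among the 45, the highest by its lowest WT MK value was Ehd3, a protein of endosome traffic, at 27.2 to 128.4 TPM. The cytokine gene Il1b followed at 14.9 to 36.6 TPM, then Icam4, an adhesion protein of red cells, at 14.4 to 45.1 TPM, and Magef1 at 12 to 57.9 TPM. Il1b overlaps its antisense gene Il1bos, which was also called, and reads of the 2 cannot be told apart without a stated strand setting. Arpin, Tada2b, Hk1os, Ackr1, C1galt1, Ufsp1, Tmem27 and Usp40 completed the 12, with lowest WT MK values of 5.6 to 11.4 TPM. Of these, C1galt1 encodes the enzyme that starts core 1 O-glycans, which platelet production needs, and Ackr1 the chemokine-binding Duffy antigen.

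Outside the lists, Rasl11a, a small GTPase of the Ras family, was 61.4 to 166.7 TPM in WT MK and 0.1 TPM at most in WT NMK. Sdpr, a caveolar protein also called cavin 2, was 104.7 to 252.6 TPM against 13.9 TPM at most. Mrps22, of the mitochondrial ribosome, was 83.2 to 164.9 TPM against 3 TPM at most, and Mob1b, of the Hippo pathway, was 30.8 to 43.8 TPM against 0.3 TPM at most. Rhoj, Car13 and Rbpms2 were also among the 20 greatest differences, with WT NMK values of up to 37.9, 16.2 and 14.3 TPM. Hist1h2bc was 73.3 to 381.2 TPM against 64.6 TPM at most, but histone genes have near-identical copies and its value is uncertain.

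Single stem cell antigens were far lower in WT MK, while the list of antigens was split. Ly6a had the most negative difference of all compared genes, -7.19 (SD 2.22). It was listed at 0 in 5 WT MK libraries, with 1.1 TPM in WT MK 1A, while 8 WT NMK libraries held 84.5 to 662.7 TPM; the remaining one, WT NMK 3A, held 0.2 TPM, which kept Ly6a from being called. Kit was 0.6 to 4.3 TPM in WT MK and 11.5 to 47.9 TPM in 8 WT NMK libraries but listed at 0 in WT NMK 1A, a difference of -2.46 (SD 1.34). Procr, the endothelial protein C receptor that marks stem cells, was 0.8 TPM or lower in WT MK and 0 to 365.4 TPM (median 14.2) in WT NMK. Cd27 was 0.1 TPM or lower in WT MK and 4.4 to 23.6 TPM in 7 WT NMK cells. Cd34 differed by -0.55 (SD 1.27), and Slamf1, which encodes the stem cell marker CD150, ran against the list, at 0 to 15.2 TPM in WT MK and listed at 0 in all 9 WT NMK cells.

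Over the 15 compared surface antigens, 7 differences were above 0 and 8 below, with a median of -0.53. Of all compared genes, 74.6% had a difference above 0, and the median was 0.70. Scores overlapped, at 1.95 ± 0.30 (SD, n = 6) and 2.80 ± 0.66 (SD, n = 9). WT NMK 1A, 3A and 4A had the lowest scores of their group.

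The regulators were lower in 13 of 17 members and higher in 4, with a median of -1.67 beside 0.70 for all genes. Of all compared genes, 74.6% were higher and 0.242% were called lower. Hoxa9, a factor that maintains stem cell self-renewal, was the called member: it was 0.3 TPM or lower in every WT MK cell and 2.5 to 32.5 TPM (median 12.2) in every WT NMK cell, a difference of -3.56 (SD 0.91). Hoxa10 was 3.6 TPM or lower in WT MK and 0 to 74.4 TPM in WT NMK, where 5 of 9 cells lay above every WT MK cell. Hlf was 0.5 TPM or lower in WT MK and 0 to 36.4 TPM in WT NMK. Mycn and Bmi1 ran against the list. Mycn was 44.7 to 181.7 TPM in WT MK and 0 to 74.7 TPM in WT NMK, and Bmi1, of the polycomb complex, was 12.6 to 22.9 TPM against 0 to 24.3 TPM. Scores were 1.6 ± 0.19 (SD, n = 6) and 2.58 ± 0.61 (SD, n = 9) and overlapped only through WT NMK 1A, whose score was the lowest of all 15. That library also listed the fewest genes above 0 (5475) and had the lowest housekeeping score (8.09) of the 15. Whether this lowered its other values was not tested.

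The genes called lower included others with clear separation. Rgs2, a brake on Gq-coupled receptors, was 0 to 11.2 TPM (median 0.85) in WT MK and 21.4 to 2137.4 TPM (median 279) in WT NMK, a difference of -6.76 (SD 1.62). Gstm1, a glutathione transferase, was 0 to 1.2 TPM against 57 to 409.4 TPM, though reads may be shared with its close relatives. Ypel3 was 0.1 to 1.2 TPM against 41.6 to 260.3 TPM, and Ramp1, a partner of the calcitonin-receptor-like receptor, was 0 to 1.6 TPM against 18.6 to 97.2 TPM. Selplg, which encodes the leukocyte ligand of P-selectin, was 0.2 to 2.5 TPM against 21.9 to 75.8 TPM, while Selp, encoding P-selectin itself, was 9.5 to 141.5 TPM against 0 to 86.7 TPM. Ldhb, the heart-type lactate dehydrogenase, was 0.1 to 3.1 TPM against 6.5 to 134.6 TPM. Its muscle-type counterpart Ldha lay on the other side, at 618.8 to 777.3 TPM in WT MK and 81 to 393.4 TPM in WT NMK, a difference of 1.70 (SD 0.53) with no overlap but under the limit for a call.

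The genes called lower, 0.242% of all compared genes, included 3 of S100 calcium-binding proteins. S100 genes were not a list here and the other members were not counted, so this says nothing about the family. S100a11 was 491.7 to 938.2 TPM against 3213.7 to 5911.6 TPM, a difference of -2.61 (SD 0.35). S100a6 was 33.4 to 599.9 TPM against 1114.4 to 3070.9 TPM, and S100a4, which lies 6849 bases from it on chromosome 3, was 0.9 to 249.2 TPM against 275.1 to 919.1 TPM. In WT MK, the highest S100a4 and S100a6 values were those of B1-1. Actin-binding Lcp1, 0.1 to 1.8 TPM against 4.6 to 30.8 TPM, and Capg, 4.5 to 29.1 TPM against 54.9 to 321.6 TPM, were also called. Egfl7, whose mouse gene is active in endothelium and stem cells, was 3.3 to 8.9 TPM against 30.3 to 130.6 TPM. Tgtp1 has a near-identical copy, and the pairs Tmem176a with Tmem176b and Prickle3 with Plp2 overlap in the genome, so the values of these 5 are uncertain. AW112010, Limd2 and Spint2 completed the 20 greatest negative calls, with differences of -4.45, -3.49 and -3.07.

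Of 20 granulocyte-monocyte markers, 6 reached 1 TPM on average, and Elane, Cebpa, S100a8, S100a9, Itgam and Lcn2 were listed at 0 in all 15 cells. Summed over the list, values were 164.5 to 349.8 TPM in WT MK and 11.3 to 1622.8 TPM in WT NMK. Lyz2, lysozyme, was 103.9 to 270.6 TPM in every WT MK cell, and 331.6 to 1510.7 TPM in 8 WT NMK cells but listed at 0 in WT NMK 1A. Spi1, which encodes the myeloid factor PU.1, was 2.9 TPM or lower in WT MK and 9 to 51.9 TPM in 8 WT NMK cells, and listed at 0 in WT NMK 3A. Ms4a3, a marker of granulocyte-monocyte progenitors, was called higher instead, at 41.3 to 82.9 TPM in all 6 WT MK cells against 33.8 TPM in WT NMK 4A and 0 in the others. The 3 compared lymphoid markers, of 16, were not called, and Pax5, Ebf1, Il7r, Dntt and Gzma were listed at 0 in all 15 cells. Nkg7, found in cytotoxic lymphocytes, was 15.2 to 39.7 TPM in WT MK, and reached 167.6, 279.7 and 148.1 TPM in WT NMK 1, 3 and 4B with 0 in the other 6. Lymphoid sums were 21.2 to 41.2 TPM in WT MK and 0 to 303.7 TPM in WT NMK. Only 2 of 11 mast cell and basophil markers could be compared, and Mcpt8 and Prss34 were listed at 0 in all 15 cells, with sums of 2.6 to 93.2 TPM and 0 to 76.7 TPM. Gzmb was 73.8 TPM in WT MK B1-1 and 9.6 TPM or lower in the other WT MK cells, and Cpa3 was 76.7 TPM in WT NMK 4B, the library that also had the high Ppbp. Of 12 stromal and endothelial markers 3 were compared, Cdh5, Col3a1, Cxcl12 and Dcn were listed at 0 in all 15 cells, and sums were 2.9 to 13.4 TPM and 0 to 42.6 TPM. What part such markers have in the differences was not tested.

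Erythroid genes, which share GATA1 with megakaryocytes, scored 4.37 ± 0.28 (SD, n = 6) in WT MK and 2.67 ± 1.02 (SD, n = 9) in WT NMK, without overlap, over 10 of 20 members. Their sums overlapped, at 517 to 929.5 TPM and 358.4 to 2384.8 TPM, and Hba-a2, Ank1, Car1 and Ermap were listed at 0 in all 15 cells. Tfrc, the transferrin receptor, was called at 45 to 80 TPM against 0 to 18.4 TPM, and Icam4 was named above. Hemgn, a GATA1 target, was 73.5 to 144 TPM in WT MK and 0 to 183.4 TPM in WT NMK, where 89.2 TPM in 1B and 183.4 TPM in 4A were the highest. Car2, carbonic anhydrase 2, had the opposite sign, at 155.7 to 387.1 TPM against 213.4 to 1316.4 TPM. Klf1, Alas2 and the alpha globins were below 1 TPM on average in both groups. The beta globin gene Hbb-bt was compared and differed by 0.62, or by 0.086 to 1.36 with 1 library left out.

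Cell cycle genes were on in every WT MK cell and split the WT NMK cells. The mitosis score was 3.89 to 5.55 in WT MK. In WT NMK it was 4.80 to 5.5 in libraries 1, 3, 1A and 3A and 0.77 to 1.9 in 2, 1B, 2B, 4A and 4B, so the group difference of 1.73 was close to its SD of 1.69. Ccnb2, cyclin B2, was 66 to 517.3 TPM in WT MK, 92.5 to 550 TPM in those 4 WT NMK cells and 1.8 TPM or lower in those 5. Birc5, survivin, was 158.3 to 310.4 TPM in WT MK, 105.3 to 327.1 TPM in the 4 and 0.1 TPM or lower in the 5. Other members did not follow the split: Ube2c, which was 1094.7 to 1672 TPM in WT NMK 1, 3 and 1A, was listed at 0 in 3A, and Aurkb was 35.3 TPM in 2B against 18.4 TPM in 3A. The 4 were picked by their mitosis score, so the split in Ccnb2 and Birc5 is a description. Ccna2, cyclin A2, was the called member, at 77.3 to 128.6 TPM in WT MK and 0 to 44.6 TPM in WT NMK. Of the 28 members, 25 were higher, beside 74.6% of all compared genes.

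**Figure D5:**
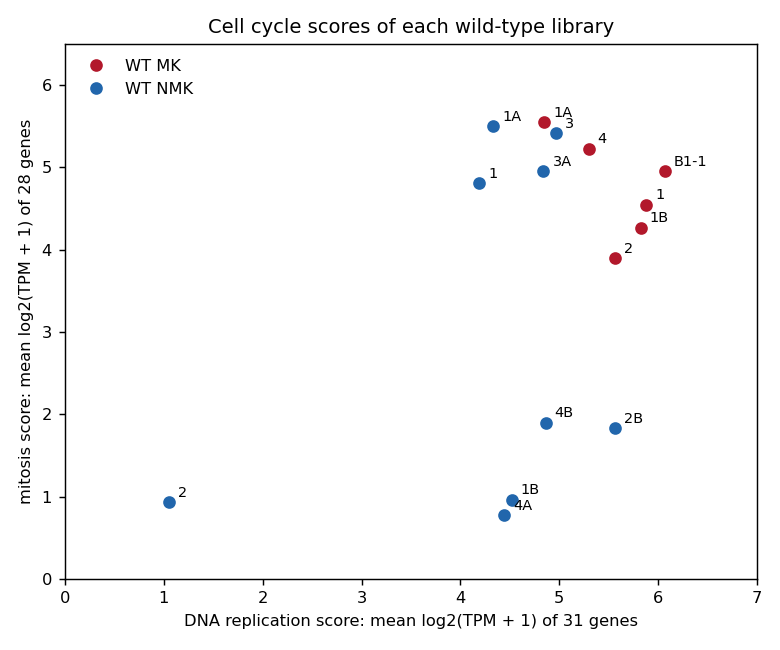
DNA replication score (horizontal axis, 31 genes) and mitosis score (vertical axis, 28 genes), each as mean log2(TPM + 1), for the 6 WT MK (red) and 9 WT NMK (blue) libraries, marked with their replicate names. WT NMK 1, 3, 1A and 3A lie at mitosis scores like those of WT MK, while 2, 1B, 2B, 4A and 4B lie at 0.77 to 1.9, and WT NMK 2 alone has a low DNA replication score (1.05).

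DNA replication genes were on in all but one cell. The score was 4.85 to 6.06 in WT MK, 4.19 to 5.56 in 8 WT NMK cells, and 1.05 in WT NMK 2. The difference of 1.27 (SD 1.05) was 0.87 without WT NMK 2. The cyclin E genes Ccne1 and Ccne2, which start replication and support endomitosis, were 2.9 to 106.5 TPM and 7.6 to 43.4 TPM in WT MK. In WT NMK, Ccne1 was 54.2 and 51.5 TPM in 2B and 4B and listed at 0 in the other 7, and Ccne2 was 0 to 27.3 TPM. Cytokinesis genes scored 3.6 ± 0.51 (SD, n = 6) and 2.41 ± 1.57 (SD, n = 9). Ect2, the RhoA activator of the cleavage furrow, was listed at 0 in all 6 WT MK cells and averaged 3.77 TPM in WT NMK, where 4 of 9 cells had 1 TPM or more. Among brakes, Cdkn1a (p21) was 13.9 to 844.2 TPM in WT MK and 0 to 297.4 TPM in WT NMK, and Rb1 was 3.1 to 21.4 TPM against 0 to 11.9 TPM. Cdkn1a, with Btg2 at 381 TPM beside 35.7 to 59.2 TPM in the others, was highest in B1-1, and without that library the p53 response difference was 0.61 in place of 1.06 (SD 1.35).

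Scores of glycolysis and oxidative phosphorylation were higher in WT MK by small amounts, without overlap between groups. Summed TPM of oxidative phosphorylation overlapped, at 19729.1 to 22260.6 in WT MK and 15699.3 to 22399.1 in WT NMK. That of glycolysis did not, at 2695.5 to 3159.1 and 1279.6 to 2224. Glycolysis scores were 5.29 ± 0.18 (SD, n = 6) and 4.43 ± 0.40 (SD, n = 9), and 17 of 19 members were higher with a median of 0.92, near the 0.70 of all genes. Oxidative phosphorylation scores were 9.27 ± 0.07 (SD, n = 6) and 8.82 ± 0.16 (SD, n = 9), with 17 of 20 members higher and a median of 0.45, below the 0.70 of all genes. Within it, Atp5b, an ATP synthase subunit, was 1146.4 to 1846.9 TPM against 468.8 to 900.2 TPM, while Ndufa4 was lower, at 2808.3 to 3799.2 TPM against 4064.1 to 7708.7 TPM. Both differences were under 2. Both list differences turned negative with the 6 libraries that the authors left out. Ribosome biogenesis genes were higher in 18 of 20 members, and Odc1, the first enzyme of polyamine synthesis, was called at 56.8 to 115 TPM against 0 to 49.5 TPM. For these 3 lists, the share of all compared genes that were higher was 74.6%.

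Redox, antigen presentation and iron genes held members on both sides. Glutathione and redox genes split into 10 higher and 11 lower, while 74.6% of all compared genes were higher. Gpx1, glutathione peroxidase 1, was 983.4 to 1642.1 TPM in WT MK and 2839.5 to 7815.5 TPM in WT NMK, a difference of -1.80 (SD 0.37) without overlap. Antigen presentation genes were lower in 13 of 17 members and higher in 4, beside the same 74.6% of all compared genes that were higher. Their median was -1.05, beside 0.70 for all genes, and their scores overlapped. B2m, the shared light chain of class I molecules, was 3796.9 to 9938 TPM against 7064.1 to 14071.1 TPM, and the immunoproteasome gene Psmb9 was 20.8 to 73.1 TPM against 178.6 to 603.2 TPM except for 18.3 TPM in WT NMK 2. Of class II genes, H2-Aa was 1 TPM or lower in WT MK and 463.6, 166.5, 88.8 and 6 TPM in WT NMK 1B, 3A, 3 and 1. Slc40a1, the iron exporter ferroportin, was 0.6 TPM or lower in WT MK and 0 to 35.9 TPM in WT NMK. Ccl2, a monocyte chemokine, was 40.9 to 278.5 TPM in WT MK, 196 TPM in WT NMK 4A and 0 in the other 8.

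Both kinds of cell shared their most abundant messages. Ftl1, Ppia, Pfn1, Tmsb4x, B2m, Ptma and Ranbp1 were among the 12 highest genes of both groups, apart from mitochondrial and ribosomal protein genes. Pf4, Cd9, Hmgn2, Ifitm3 and Rap1b were among the 12 of WT MK alone. Cd9, a tetraspanin of platelets and stem cells, was 3349.4 to 7122.9 TPM in WT MK and 1083.4 to 4258.5 TPM in WT NMK. Ndufa4, Stmn1, Gpx1, S100a11 and Fth1 were among the 12 of WT NMK alone. Stmn1, stathmin, which frees tubulin from microtubules, ranged in WT NMK from 243.8 TPM in library 2 to 11892.7 TPM in 1A, against 714.4 to 1537.7 TPM in WT MK. In all 15 cells 1982 genes were at 1 TPM or more, in all 6 WT MK cells 7634, and in all 9 WT NMK cells 2009.

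The same comparison in cells of genotype MxCre1+/-,RUNX1f/f (KO), which carry the Cre, rests on 5 KO MK and 13 KO NMK libraries. By the same rule 33 of 13365 genes (0.247%) were called higher and 1 (0.00748%) lower. Whatever the size, all KO MK libraries lay above all KO NMK libraries for 0.299% of genes and below them for 0.015%, and 69% of differences were above 0. Of all 266 genes called higher in wild type, 251 had a positive difference in KO, whether or not they reached 1 TPM there. Of the 266, 255 reached 1 TPM on average and could be compared, and 6 were called. Of the 28 called lower, 22 had a negative difference and none was called. The median KO difference was 1.87 for the 255 compared genes called higher and -1.12 for the 28 called lower, beside 0.59 for all genes. Without the 2 KO NMK libraries with housekeeping scores of 2.55 and 3.77, a choice made after seeing the data, 37 were called higher and 10 lower. Of the 5 libraries labelled KO MK, B1-4 and 2 stood apart, with alpha-granule cargo scores of 2.88 and 2.91 against 6.97 to 7.61 in the other 3, and surface antigen scores of 5.28 and 4.51 against 2.59 to 3.09. Their Pf4 was 65.8 and 213.7 TPM and their Gata1 0 and 5.7 TPM. With these libraries in the group, Gata1 spread from 0 to 302.1 TPM in KO MK with 0.1 TPM at most in KO NMK, and Pf4 from 65.8 to 26884.7 TPM against 3.4 to 841.3 TPM. Rap1b, with a difference of 3.17 in wild type, had one of 3.57 in KO. Among genes called lower in wild type, Selplg had a KO difference of -2.59, Rgs2 -2.21 and S100a11 0.72. The 2 genotypes hold different numbers of cells. Whether the differences of the 2 genotypes are unequal was not tested.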

How the data were processed

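Libraries were made from single cells with SMART-Seq, per the labels' protocols. The submitters' processing notes name FastQC 0.11.7, cutadapt 1.9.1, STAR 2.6.1e, featureCounts 1.6.2 and the mm10 build. No source used here gives the strand setting. TPM values were deposited by the authors to 1 decimal place, once for 46 libraries and once for the 33 left after outliers were taken out; these 33 are identical in both tables. No source used here says how outliers were chosen. The labels list 90 samples, 44 of which are not analysed here; 1 column without a matching sample was set aside. TPM keeps no read number, so depth is unknown and no counting interval can be given.

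From the TPM values the mean log2(TPM + 1) of each group, its difference and the pooled SD between cells were computed with python 3.11.15, numpy 2.4.6, pandas 2.3.3 and scipy 1.17.1, and plots were drawn with matplotlib 3.10.9. The added 1 understates differences of low genes. Genes needed a mean of 1 TPM in a group. No test was made. The calling script was run on simulated normal values on the log2 scale with added shifts. That simulation did not model missed transcripts or unequal detection between groups, so it cannot show how often calls are false here. Named genes were the 20 called genes with the greatest difference in each direction at a mean of 10 TPM or more, leaving out predicted, small RNA, mitochondrial, ribosomal protein and pseudogene names; up to 4 members per list with the greatest difference; 12 genes present only in WT MK; the most abundant genes; and cell type markers. Other list members were named after their values were seen, and the values of a few genes are not reported here. The members and the 33 lists were chosen with earlier results of these data known. Of 35869 genes, 32401 matched RefSeq, whose GRCm38.p6 coordinates and promoters were used. Alternatives were other pseudocounts, filters, scalings, tables and left-out libraries.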

Additional observations from a re-analysis of the deposited data

Results flagged for a closer look

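In 385 groups of values, a cell was marked where its gap to the next cell, as a share of the range of the group on the log2 scale, passed Dixon's 95% limit, and this marked 52 values. Chance gives about 1 in 20 for normal values, which groups made up mostly of zeros are not, so the number of marks is not read against it.

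In WT NMK, single cells stood high for genes of the platelet lists: Gp5 at 8.4 TPM in 4A, Gp1bb at 7.1 TPM in 2B, Timp3 at 5.8 TPM in 2, Treml1 at 0.6 TPM in 2, Ppbp at 313.8 TPM in 4B, Slc35d3 at 26.6 TPM in 3, Gucy1a3 at 22.7 TPM in 1, Tubb2a at 171.9 TPM in 1A and Gata1 at 0.5 TPM in 1B. These values lie in 8 different cells. Other high values were Rasl11a at 0.1 TPM in 3, Mrps22 at 3 TPM in 1B, Ms4a3 at 33.8 TPM in 4A, Rb1 at 11.9 TPM in 3, Ccl2 at 196 TPM in 4A, Pmaip1 at 55.9 TPM in 1, and the mast cell and basophil score of 3.14 in 4B.

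Single WT NMK cells stood low for Ly6a at 0.2 TPM in 3A, Spi1 at 0 in 3A, Kit and Lyz2 at 0 in 1A, Ldhb at 6.5 TPM and Tmem176b at 12.4 TPM in 4A, Prickle3 at 7.7 TPM in 1, H2-Ab1 at 0 in 3, Rap1b at 162.5 TPM in 1B, Sdha at 7.6 TPM and Psmb9 at 18.3 TPM in 2, and the DNA replication score of 1.05 in 2.

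Of the WT MK cells, B1-1 stood apart most often. It was high for Cd9 at 7122.9 TPM, B2m at 9938 TPM, Btg2 at 381 TPM, Tbxas1 at 30 TPM, Spint2 at 37 TPM and Usp40 at 10.7 TPM, and for the surface antigen score at 2.51 and the mast cell and basophil score at 5.18. It was low for Pfn1 at 5193.9 TPM, Hmgn2 at 1802.4 TPM, Ranbp1 at 1950.9 TPM, Cycs at 339.4 TPM, Ccnb2 at 66 TPM and Usp18 at 7.2 TPM. WT MK 2 was low for Fcer1g at 107.8 TPM and for the transcription factor score at 3.10. WT MK 1A was high for Ly6a at 1.1 TPM, Blvrb at 338.7 TPM and Prtn3 at 11.7 TPM and low for Stmn1 at 714.4 TPM. WT MK 1B was low for Aurkb at 2.3 TPM, WT MK 4 was high for Ramp1 at 1.6 TPM and Hoxa10 at 3.6 TPM, and WT MK 1 for Lcp1 at 1.8 TPM.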

How the results depend on the processing

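No paired analysis was possible because the results come from no test. Each group counts as 1 sample, depth is unknown, and a gene listed at 0 may have been missed. Leaving out 1 library at a time gave 274 to 344 genes called higher, 28 to 37 called lower and a median gene of 0.63 to 0.75. The main counts were 266 and 28. With a library left out, the rule of no overlap is easier to meet, so these counts cannot show that the calls are stable. List differences were then 2.46 to 2.71 for alpha-granule cargo, 2.95 to 3.26 for adhesion, 2.04 to 2.20 for agonist response, 1.13 to 1.305 for transcription factors, 1.505 to 1.67 for cytoskeleton, 1.11 to 1.28 for granule biogenesis, -0.96 to -0.74 for stem surface antigens and -1.14 to -0.88 for stem regulators.

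The count called higher was 4 with all libraries of the fuller table, 474 with 0.1 TPM added and 48 with 10 TPM, 554 with the unprefixed WT MK libraries averaged, 152 at a mean of 10 TPM or more, 493 at a difference of 1, and 153 at 2 beyond the median gene. The count called lower was 4 with all libraries, 65 without the 3 WT NMK libraries with the fewest genes, and 45 at a difference of 1. The median gene was 0.012 with all libraries, 1.58 with 0.1 TPM, 0.14 with 10 TPM, 0.13 as a ratio of mean TPM and 0.088 with no filter.

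In the order all libraries, 0.1 TPM, 10 TPM and ratio of means, the list difference was 1.21, 3.86, 1.48 and 1.91 for cargo, 1.56, 4.72, 1.63 and 2.47 for adhesion, 0.64, 3.16, 1.09 and 1.33 for agonist response, 0.32, 2.16, 0.35 and 0.74 for transcription factors, 0.20, 2.19, 0.92 and 0.98 for cytoskeleton, and -0.041, 2.37, 0.41 and 0.71 for granule biogenesis. Stem surface antigens gave -1.47 as a ratio, and stem regulators -0.46 with 10 TPM and -1.97 as a ratio.

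With all libraries the sign also turned for eicosanoid enzymes (-0.37), DNA replication (-0.37), cell cycle brakes (-0.0042), glycolysis (-0.65), oxidative phosphorylation (-1.97), ribosome biogenesis (-0.11), heme and iron (-0.37), chemokines (-0.19, and -0.77 as a ratio), cholesterol synthesis (-0.67) and housekeeping (-1.16). It turned for Blvrb (-0.050), Cdkn2d (-0.58), Ldha (-0.48), Cycs (-1.63), Atp5a1 (-0.19), Atp5b (-1.36), Rgs18 (-0.70), Cd9 (-1.06), Gapdh (-1.304), Tubb5 (-0.17) and Tmsb4x (-0.19), and as a ratio for Cdkn2c (-0.17). The 6 added libraries have housekeeping scores of 2.38 to 4.73, and the cause was not tested.

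Without the 2 KO NMK libraries with low housekeeping scores, an alternative chosen after seeing the data, 10 genes in place of 1 were called lower in KO MK.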
